A study of Mus musculus with 18 samples.

Results

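The genes described here are 41 mouse genes whose products carry a cell through mitosis and cytokinesis, the division of the chromosomes and then of the cell body. They were taken by gene symbol from the array's annotation, with the probe of highest mean signal standing for each gene, and 26 of the 41 passed a detection filter (detection p under 0.05 on at least 3 of 17 arrays), among 11233 genes that passed it in all. Of the other 15, Ccnb1 and Mki67 had no probe listed under their symbol and were not analysed here. The remaining 13 did not pass. Ccnb2, Ube2c, Ttk, Tpx2 and Ect2 were above background on 1 array each, and Ccna2, Cks1b, Cks2, Bub1, Cenpe, Hmmr, Kif20a and Racgap1 on 0 arrays. Cenpf and Nuf2 lay just inside the filter, with 3 arrays each. A gene that passed through the group in which it is high had to differ between groups, so counts over the 26 describe those 26 genes and support nothing about the 41.

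Mitosis is driven by Cdk1 with its cyclins, which build up before division and are destroyed at anaphase by the anaphase-promoting complex with its activator Cdc20. A spindle checkpoint holds Cdc20 back until the microtubules grip every chromosome through the centromere and the Ndc80 complex, and the chromosomal passenger complex corrects faulty attachments and later steers cytokinesis at the midzone that Prc1 bundles. Fibres of adult muscle do not divide. After injury, dividing satellite cells, immune cells and fibroblasts bring transcripts of such genes into whole muscle.

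The tibialis anterior, a shin muscle, came from mice aged 2 months that had received ssRNA (single-stranded RNA) in one leg and saline in the opposite leg, 3 injections over 10 days with 3-day recovery periods between them. A/J mice were dysferlin deficient, A/J-MyD88 deficient mice lacked both dysferlin and MyD88, and A/JOlaHsd mice, the wild-type strain, had dysferlin. Dysferlin helps muscle fibres reseal their membrane, and MyD88 passes on signals of most Toll-like receptors. Each strain and injection had 3 Illumina arrays, and all groups share the repeated injection and its needle injury. Nothing in the labels states that each array is a separate animal or how the MyD88 allele was brought onto A/J, so p-values measure the spread between arrays, which may be partly technical.

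One array, A/JOlaHsd ssRNA 2, held no muscle signal and was left out of every value below, which leaves 2 arrays in that group. Mean probe signal ran from 37.4 to 50.2 on the A/JOlaHsd arrays, against 98.1 to 147.3 on those of the other strains, so strain and array signal cannot be told apart in comparisons with A/JOlaHsd. Dysf, the gene of dysferlin, averaged 6.13 ± 0.08 in A/J saline legs and 9.60 ± 0.16 in A/JOlaHsd saline legs (log2 intensity, SD, n = 3 each), a difference of -3.47 (limma adjusted p 1.36e-10). The Myd88 probe read 7.60 ± 0.27 in A/J-MyD88 deficient saline legs and 6.88 ± 0.18 in A/J saline legs (n = 3 each); its place relative to the allele is not stated, and it therefore checks nothing about that label. Markers of muscle fibres such as Acta1 were high on all 17 arrays, with mean log2 values over 9 fibre genes of 12.3 to 13.2.

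Levels of single genes below are normalised log2 intensities of 1 probe, so they compare arrays for a gene and not genes with each other. Summed signals of marker lists are sums of non-normalised intensities over the measured genes. They also carry the differences in mean signal between arrays given above. In a whole muscle, fewer dividing cells and less transcript per dividing cell cannot be told apart.

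In A/J mice, 19 of the 26 genes were higher in ssRNA than in saline legs and 0 were lower, on a background of 22.4% of all genes called, 12.4% called higher and 10% called lower (limma, Benjamini-Hochberg adjusted p under 0.05 over 11233 genes). The 3 ssRNA arrays lay above the 3 saline arrays for 21 of the 26, a position that 20.6% of all genes shared. The 26 log2 fold changes were all above 0, with a median of 0.96, or 0.89 with 12 genes set at their lower bounds, against -0.05 over all genes. A lower bound ("at least") is given where no probe of a gene was above background on any array of the lower group. It sets the mean of the higher group against the smallest detected value on each array of the lower one.

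**Figure D1:**
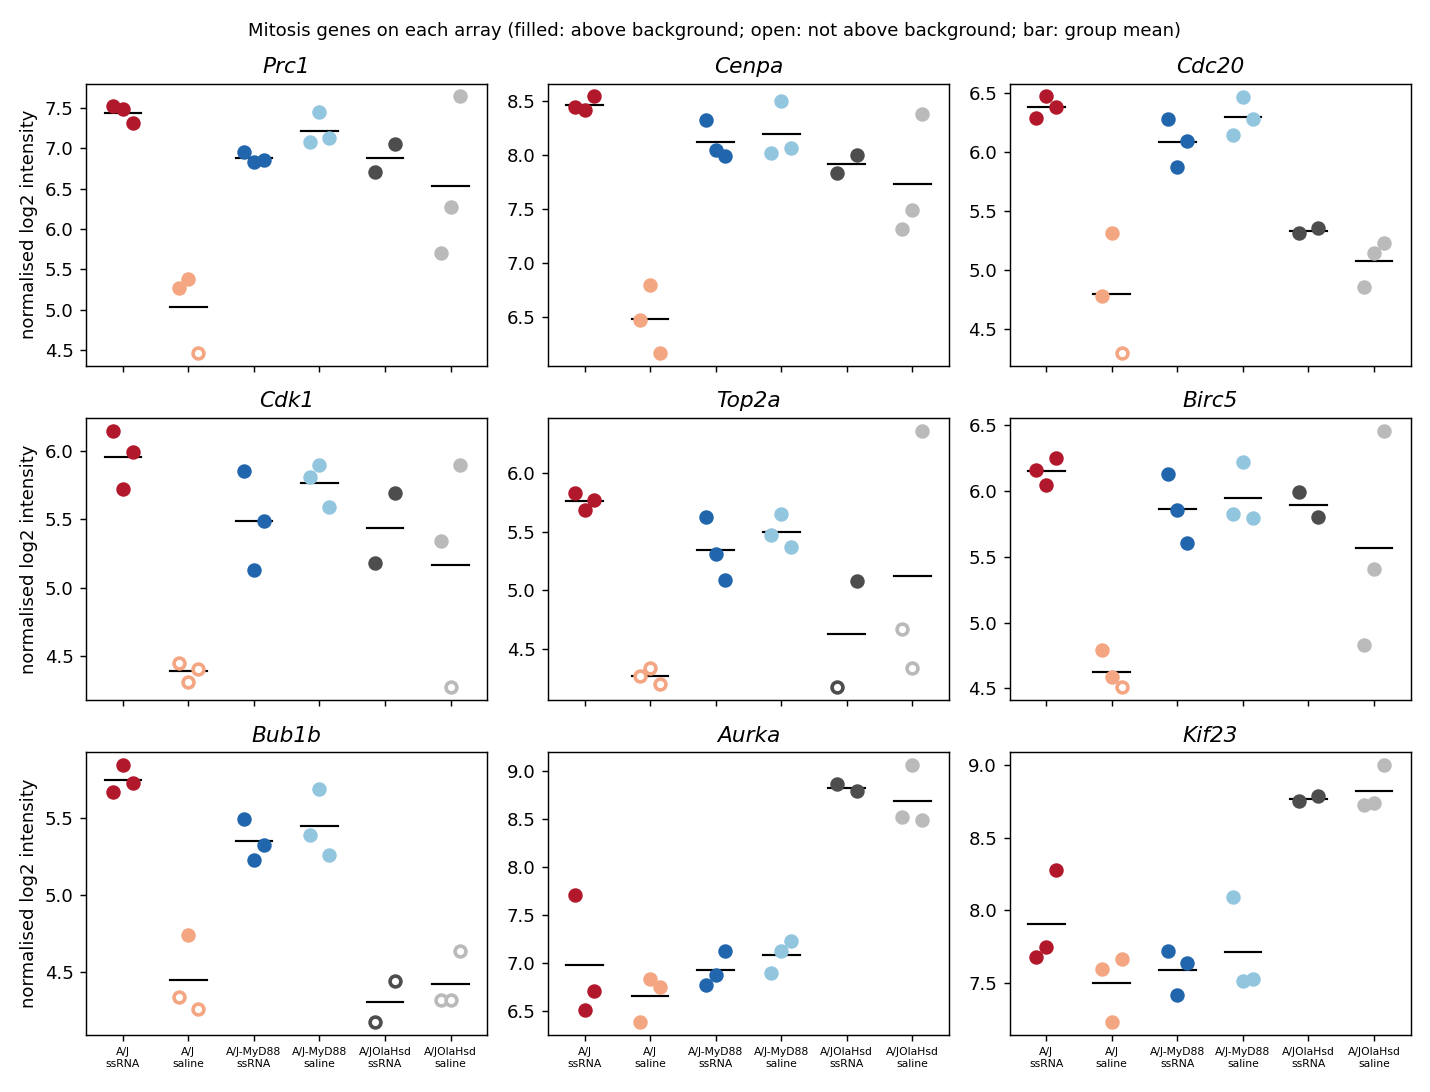
Normalised log2 intensity of 9 mitosis genes on each array, by strain and injection, with a bar at the group mean and open points where the probe was not above background. The A/J ssRNA arrays of Prc1 lay between 7.31 and 7.52, above the A/J saline arrays at 4.46 to 5.37, while Aurka and Kif23 stood highest in A/JOlaHsd.

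Among the genes of the spindle midzone and the cleavage furrow, Prc1 bundles the overlapping microtubules between the separating chromosomes. Prc1 read 7.52, 7.48 and 7.31 on the A/J ssRNA arrays, against 5.27, 5.37 and 4.46 on the A/J saline arrays, the last of them not above background. The groups were far apart, and the log2 fold change of 2.40 ± 0.35 (SE, adjusted p 0.000134) was the highest of the 26. Anln, the scaffold anillin of the contractile ring, read 6.41, 6.40 and 6.41 in ssRNA legs, against 4.88, 5.14 and 4.49 in saline legs. Its ssRNA arrays were nearly equal and all above saline, with a log2 fold change of 1.57 ± 0.32 (adjusted p 0.00205). Kif23, a kinesin of the centralspindlin complex, read 7.68, 7.75 and 8.28 in ssRNA legs, against 7.60, 7.24 and 7.66 in saline legs. That difference of 0.40 ± 0.18 was not called (adjusted p 0.136). Of its 3 further probes that passed the filter, 2 were called higher, at 0.81 (adjusted p 0.0328) and 0.97 (adjusted p 0.00326), and 1 was not, at -0.05 (adjusted p 0.889).

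Cdk1, the kinase that starts mitosis, read 6.15, 5.72 and 5.99 in A/J ssRNA legs, against 4.45, 4.31 and 4.40 in A/J saline legs. No saline array was above background, and Cdk1 was at least 2.65-fold higher in ssRNA legs (adjusted p 0.00128). Cdca3, which acts in the destruction of the Cdk1 inhibitor Wee1, read 5.88, 5.87 and 6.05, against 5.08, 4.79 and 4.55 in saline legs, a log2 fold change of 1.12 ± 0.18 (adjusted p 0.000361). A second probe of Cdca3 changed by 0.31 and was not called (adjusted p 0.126). Cdc20, the activator of the anaphase-promoting complex, read 6.28, 6.47 and 6.38 in ssRNA legs, against 4.78, 5.31 and 4.30 in saline legs. Its log2 fold change was 1.58 ± 0.20 (adjusted p 3.98e-05). Of 3 further probes 2 were called higher, at 0.93 and 1.02, and 1, at 0.10, was not.

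In the spindle checkpoint, Bub1b, whose protein BubR1 holds Cdc20 inactive, read 5.67, 5.84 and 5.73 in A/J ssRNA legs, against 4.34, 4.74 and 4.26 in A/J saline legs. Bub1b changed by 1.30 ± 0.15 on the log2 scale (adjusted p 2.65e-05), and only 1 of its saline arrays was above background. Mad2l1, the checkpoint protein Mad2, read 5.87, 5.74 and 5.70, against 4.94, 4.40 and 4.64 in saline legs, a log2 fold change of 1.11 ± 0.19 (adjusted p 0.0007). Both groups of 3 were apart in each of these genes. The second probe of each was also called, with smaller changes of 0.45 for Bub1b (adjusted p 0.0249) and 0.54 for Mad2l1 (adjusted p 0.0033).

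Birc5, Cdca8 and Aurkb, of the chromosomal passenger complex, rose in A/J. Birc5, the subunit survivin, read 6.16, 6.05 and 6.25 in ssRNA legs, against 4.79, 4.58 and 4.51 in saline legs (log2 fold change 1.52 ± 0.28, adjusted p 0.00104). Cdca8, the subunit borealin, read 5.42, 5.52 and 5.56, against 4.36, 4.24 and 4.39 in saline legs, where it was not above background. Cdca8 was at least 1.94-fold higher (adjusted p 0.0061), and Aurkb, the kinase of the complex, was higher by at least 1.46-fold (adjusted p 0.000722).

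Of the other mitotic kinases, Pbk, a kinase that Cdk1 activates in mitosis, read 6.08, 5.92 and 6.02 in A/J ssRNA legs, against 4.45, 4.40 and 4.34 in A/J saline legs, none above background. Pbk was at least 2.75-fold higher (adjusted p 0.00025). Aurka, the kinase that matures centrosomes, read 7.70, 6.50 and 6.71 in ssRNA legs, against 6.38, 6.83 and 6.75 in saline legs. The groups overlapped, the difference of 0.32 ± 0.25 was not called (adjusted p 0.401), and it was -0.0492 when the high ssRNA array 1 was left out. Plk1, a kinase of mitotic entry and cytokinesis, had a mean of 4.87 ± 0.61 after ssRNA and 4.41 ± 0.19 after saline (SD, n = 3 each) and was not called (adjusted p 0.217). When ssRNA array 1 was left out its difference was 0.78 (adjusted p 0.0276).

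At the centromere, Cenpa, the histone variant that marks it, read 8.45, 8.42 and 8.55 in A/J ssRNA legs, against 6.47, 6.79 and 6.16 in A/J saline legs. All 6 arrays were above background, and the log2 fold change was 2.00 ± 0.23 (adjusted p 2.11e-05). The Ndc80 complex couples the centromere to microtubules and is built of Ndc80, Nuf2, Spc24 and Spc25. Ndc80 and Spc25 were at least 1.40-fold and at least 1.32-fold higher in ssRNA legs (adjusted p 0.000547 and 0.00251), although a second probe of each was not called (adjusted p 0.993 and 0.0767). Spc24 averaged 6.19 ± 0.19 in ssRNA legs and 5.79 ± 0.32 in saline legs (adjusted p 0.13), and Nuf2 4.39 ± 0.12 and 4.34 ± 0.11 (adjusted p 0.829; SD, n = 3 each), neither called. The Nuf2 difference turned to -0.0205 without A/J ssRNA array 3. Cenpf, a large protein of the outer kinetochore, averaged 4.48 ± 0.03 and 4.35 ± 0.09 and was not called (adjusted p 0.438).

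Nusap1, which bundles spindle microtubules near chromosomes, read 5.89, 6.04 and 5.92 in A/J ssRNA legs, against 4.48, 4.72 and 4.36 in A/J saline legs (log2 fold change 1.43 ± 0.24, adjusted p 0.000583). Among the kinesins, Kif22, which moves chromosomes away from the poles, changed by 0.81 ± 0.19 (adjusted p 0.00633). Kif4, a chromosome-bound kinesin that also works with Prc1, read 5.07, 5.07 and 4.94 in ssRNA legs, against 4.39, 4.40 and 4.32 in saline legs, and was at least 1.39-fold higher (adjusted p 0.00637), while a second probe at 0.23 was not called (adjusted p 0.227). Kif2c, which takes microtubule ends apart, was at least 1.06-fold higher and lay nearest inside the threshold (adjusted p 0.0474), and leaving out any 1 of the 6 A/J arrays ended its call (adjusted p 0.0511 to 0.164). Kif11, the motor that drives the spindle poles apart, lay nearest outside it, with a bound of 1.09-fold (adjusted p 0.101). Top2a, the topoisomerase that untangles sister chromosomes, read 5.83, 5.68 and 5.77, against 4.27, 4.34 and 4.19 in saline legs, none above background, and was at least 2.32-fold higher (adjusted p 0.00723).

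**Figure D2:**
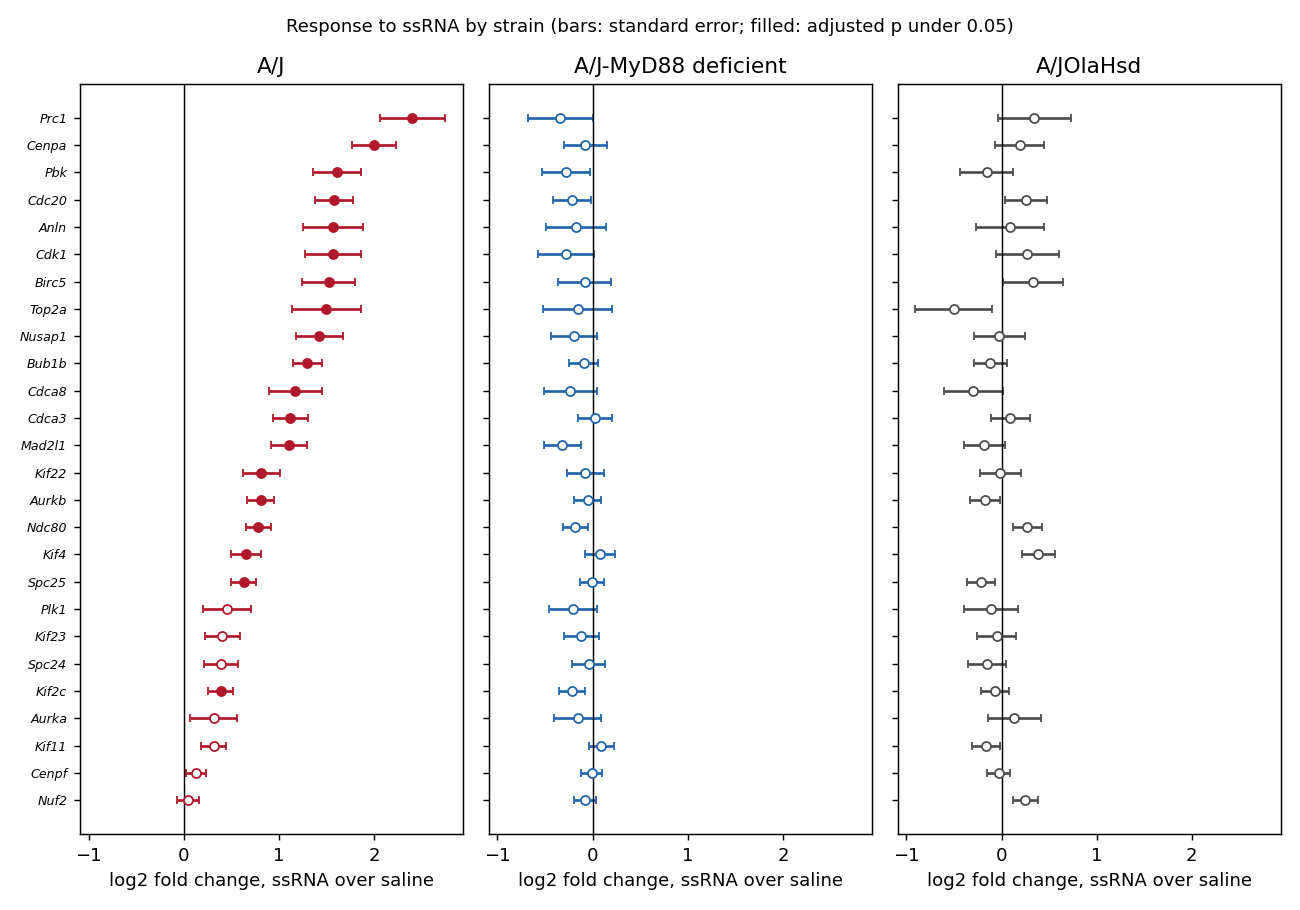
Log2 fold change, ssRNA over saline, of the 26 genes in each strain, with standard errors and filled points where the adjusted p was under 0.05. In A/J 19 points are filled, from Kif2c at 0.39 to Prc1 at 2.40, and in the other 2 strains none is filled. Fitted values of genes not above background in a group are shown here as measured, not as bounds.

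Promoters of late cell cycle genes are known for a pair of elements, CCAAT boxes bound by NF-Y and a cell cycle homology region bound by the DREAM complex in resting cells and by B-Myb and FoxM1 in dividing ones. RefSeq promoter windows of build GRCm38.p6, from 250 bases before to 50 bases after the start of transcription, were found for 35 of the 41 genes, in 37 windows. 5 are shown, from genes that rose in A/J and hold both elements, as the 150 bases before the start, 5′ to 3′ on the gene's strand. Capitals mark TTTGAA or TTCGAA (cell cycle homology region) and CCAAT, read on either strand, so that TTCAAA and ATTGG are the same letters read from the other strand.
Prc1 (chr7:80294326-80294475, plus strand): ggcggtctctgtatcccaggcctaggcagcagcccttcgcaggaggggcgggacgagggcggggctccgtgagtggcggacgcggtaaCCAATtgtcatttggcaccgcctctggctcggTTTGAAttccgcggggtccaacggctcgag
Cdc20 (chr4:118437344-118437493, minus strand): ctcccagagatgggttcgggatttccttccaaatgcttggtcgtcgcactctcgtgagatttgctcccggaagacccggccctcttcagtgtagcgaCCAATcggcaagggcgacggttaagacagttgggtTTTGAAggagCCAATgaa
Cdk1 (chr10:69352913-69353062, minus strand): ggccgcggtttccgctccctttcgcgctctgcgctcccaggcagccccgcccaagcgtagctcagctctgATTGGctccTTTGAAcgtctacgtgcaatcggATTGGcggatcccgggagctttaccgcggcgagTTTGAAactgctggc
Kif22 (chr7:127042421-127042570, minus strand): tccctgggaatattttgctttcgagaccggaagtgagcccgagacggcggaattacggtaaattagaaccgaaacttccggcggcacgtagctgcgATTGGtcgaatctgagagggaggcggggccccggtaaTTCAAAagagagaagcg
Top2a (chr11:99024190-99024339, minus strand): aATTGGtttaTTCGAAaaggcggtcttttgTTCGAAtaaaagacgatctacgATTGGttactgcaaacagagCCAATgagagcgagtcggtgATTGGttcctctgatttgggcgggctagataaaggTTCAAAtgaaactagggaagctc
In these stretches Prc1 and Kif22 held 1 of each element, while Cdc20, Cdk1 and Top2a held at least 1 of them more than once. The homology letters occurred in 81.1% of the 37 windows, against 19.2% of the 32851 windows of all genes of the same length. CCAAT occurred in 81.1%, against 37.4%, and both together in 73.0%, against 7.52%. The letters TTCCCGC, an E2F site, occurred in 0 of the 37 windows and in 4.6% of all windows. Among the 17 called genes with a window, 82.4% had the homology letters and 64.7% had CCAAT, against 80.0% for each over all 35. Birc5, Mad2l1 and Nusap1 rose in A/J without the homology letters in these windows. Such matches of letters are descriptions and show no binding.

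**Figure D3:**
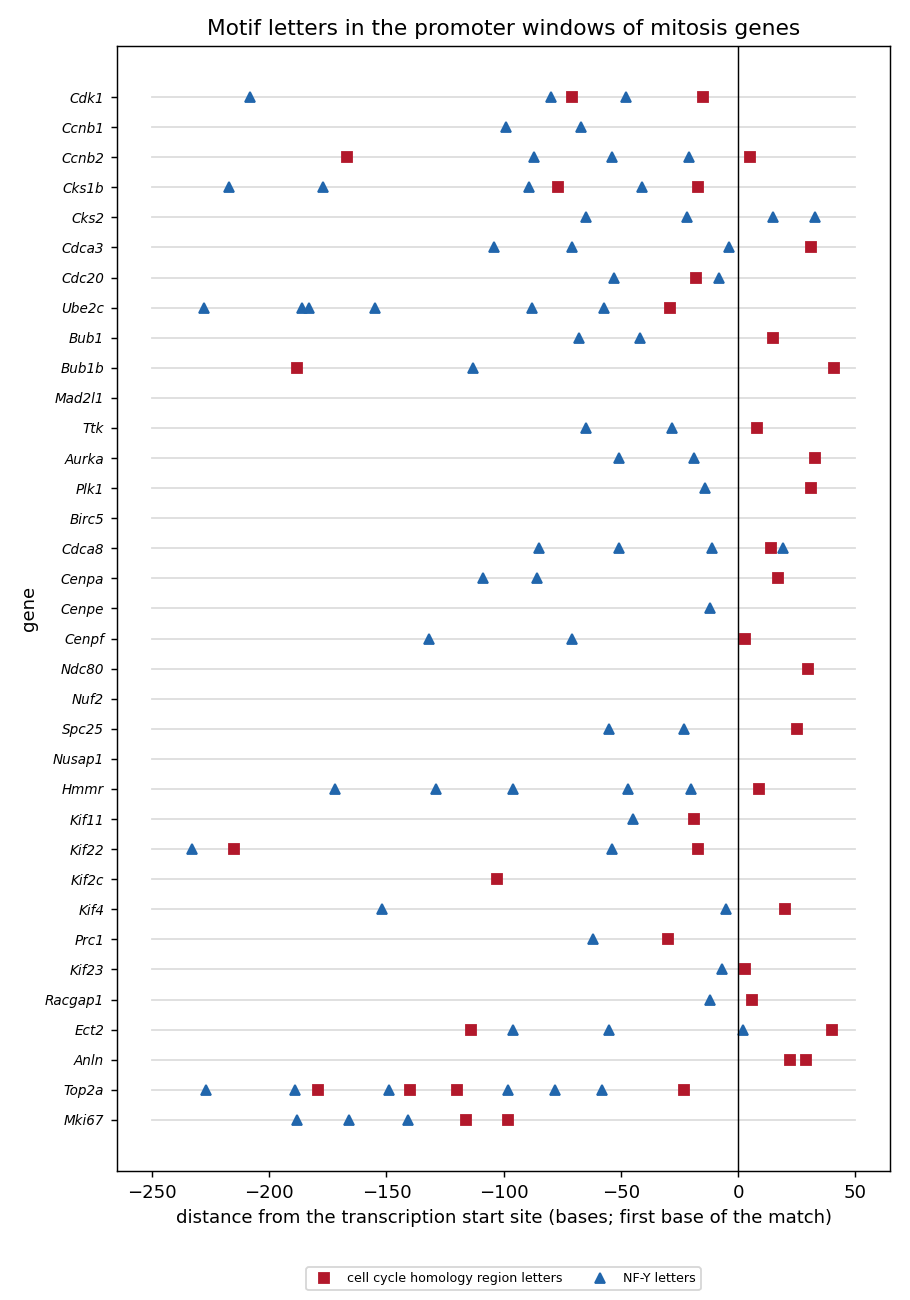
Positions of the homology letters (squares) and of CCAAT (triangles), on either strand, in 1 promoter window for each of 35 mitosis genes, as distance in bases from the start of transcription. Both kinds cluster near the start in most genes, and Birc5, Mad2l1, Nuf2 and Nusap1 hold neither.

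In A/J-MyD88 deficient mice, 0 of the 26 genes were called between ssRNA and saline legs, on a background of 0% (limma, 0 of 11233 genes called and 130 at an unadjusted p under 0.05, of which 0 were among the 26). The median log2 fold change of the 26 was -0.14, against 0.01 over all genes, and 23 of the 26 were below 0. Prc1 read 6.96, 6.83 and 6.85 in ssRNA legs, against 7.08, 7.45 and 7.12 in saline legs. Mad2l1 read 5.49, 5.05 and 5.09, against 5.54, 5.54 and 5.51 in saline legs. In these 2 genes each ssRNA array lay below each saline array, a position that 3.24% of all genes shared, at -0.34 ± 0.35 for Prc1 and -0.32 ± 0.19 for Mad2l1 (both adjusted p 1). The 95% interval of Prc1 reached from -1.07 to 0.40, and that of Cenpa, at -0.08, from -0.56 to 0.41.

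The saline legs of the A/J-MyD88 deficient mice stood high for these genes. Of the 26, 16 were higher in A/J-MyD88 deficient than in A/J saline legs and 0 were lower, on a background of 5.4% called, 4.42% called higher and 0.988% called lower. Each A/J-MyD88 deficient array lay above each A/J array in 21 of the 26, against 16.4% of all genes. The median difference was 0.89, against -0.02 over all genes. Prc1, at 7.08, 7.45 and 7.12 in A/J-MyD88 deficient saline legs, stood above the 5.27, 5.37 and 4.46 of A/J saline legs, a difference of 2.18 ± 0.35 (adjusted p 0.00197). Cenpa read 8.02, 8.50 and 8.07, against 6.47, 6.79 and 6.16 in A/J saline legs (1.72 ± 0.23, adjusted p 0.00066). Cdc20 read 6.14, 6.47 and 6.28, against 4.78, 5.31 and 4.30 (1.50 ± 0.20, adjusted p 0.000632).

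The next genes in size held the same order, Pbk and Cdk1 among them without an A/J saline array above background. Pbk read 5.74, 6.08 and 5.71 in A/J-MyD88 deficient saline legs, against 4.45, 4.40 and 4.34 in A/J saline legs, and was at least 2.45-fold higher (adjusted p 0.00314). Cdk1 read 5.81, 5.90 and 5.59, against 4.45, 4.31 and 4.40, and was at least 2.33-fold higher (adjusted p 0.0116). Birc5 read 5.82, 6.22 and 5.80, against 4.79, 4.58 and 4.51 (1.32 ± 0.28, adjusted p 0.0108). Top2a, at least 1.93-fold higher, was not called (adjusted p 0.0618). The other 10 called genes were Anln, Cdca8, Nusap1, Cdca3, Bub1b, Kif22, Mad2l1, Aurkb, Kif2c and Ndc80. This count rests in part on single arrays: without A/J saline array 3, or without A/J-MyD88 deficient saline array 2, 7 genes were called. Calls over all 11233 genes fell too, from 496 higher and 111 lower. They were 178 and 37 in the first omission, and 161 and 19 in the second.

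**Figure D4:**
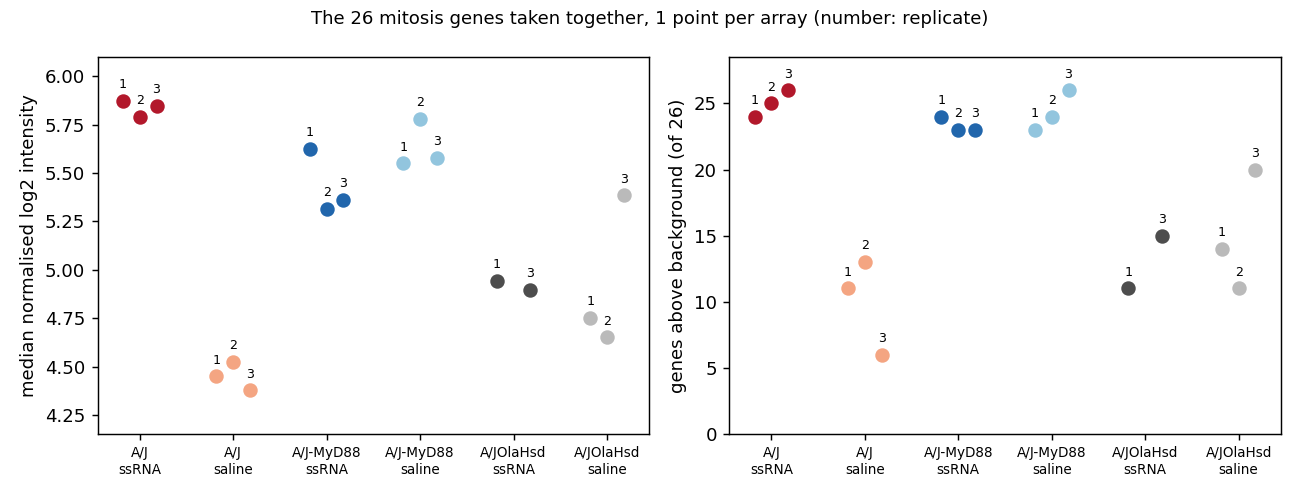
Median normalised log2 intensity of the 26 genes (left) and number of the 26 above background (right) on each array. The median lay at 5.79 to 5.87 on A/J ssRNA arrays and 4.38 to 4.53 on A/J saline arrays, while both legs of A/J-MyD88 deficient mice lay between 5.31 and 5.78.

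Taken over the 26 genes, an A/J ssRNA array detected 24 to 26 of them and an A/J saline array 6 to 13. A/J-MyD88 deficient arrays detected 23 or 24 in ssRNA legs and 23 to 26 in saline legs. A gene counted here by any of its probes. Of all probes, 41.3% to 42.4% were above background on A/J ssRNA arrays and 37.2% to 37.8% on A/J saline arrays. On A/J-MyD88 deficient arrays the share was 39.0% to 42.6% in ssRNA legs and 39.9% to 41.5% in saline legs. Between ssRNA legs, 0 of the 26 genes were called between A/J-MyD88 deficient and A/J mice (background 5.73% called, 2.68% higher and 3.05% lower, limma; 3 of the 26 at an unadjusted p under 0.05). The differences were below 0 in 23 of the 26, with a median of -0.30, and the A/J-MyD88 deficient arrays lay wholly below the A/J arrays in 12, against 14.8% of all genes. Prc1 read 6.96, 6.83 and 6.85 in A/J-MyD88 deficient ssRNA legs, against 7.52, 7.48 and 7.31 in A/J ssRNA legs, and differed by -0.56 ± 0.35 (adjusted p 0.379). Mad2l1 read 5.49, 5.05 and 5.09, against 5.87, 5.74 and 5.70, and differed by -0.56 ± 0.19 (adjusted p 0.099). With median centring 7 genes were called here, and in a fit of the 2 ssRNA groups alone 6. Calls over all genes rose too, from 301 higher and 343 lower in the main fit. They were 90 higher and 1165 lower with median centring, and 691 and 652 in the fit of these groups alone.

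The response to ssRNA itself, ssRNA minus saline, was lower in A/J-MyD88 deficient than in A/J mice for 16 of the 26 genes and higher for 0, on a background of 10.2% called, 6.89% called lower and 3.34% called higher. All 26 differences were below 0. The response of Prc1 was -0.34 in A/J-MyD88 deficient and 2.40 in A/J mice, a difference of -2.74 ± 0.49 (adjusted p 0.00245). That of Cenpa was -0.08 and 2.00 (difference -2.07 ± 0.33, adjusted p 0.00108), and that of Cdc20 -0.22 and 1.58 (difference -1.80 ± 0.28, adjusted p 0.00106). In ssRNA legs of A/J-MyD88 deficient mice Cenpa read 8.32, 8.05 and 7.996, Cdc20 read 6.28, 5.87 and 6.09, Pbk read 5.79, 5.39 and 5.50, Cdk1 read 5.86, 5.13 and 5.49 and Anln read 6.10, 5.85 and 5.87. In their saline legs Anln read 6.05, 6.36 and 5.94, and in each of these 5 genes the legs overlapped. Top2a (-1.66 ± 0.51, adjusted p 0.0516) and Kif2c (-0.60 ± 0.19, adjusted p 0.054) lay just outside the threshold. Because 12 genes were not above background in A/J saline legs, differences for genes such as Pbk and Cdk1 are fitted values and not bounds. The A/J saline arrays enter both this difference and the comparison of saline legs.

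11 of the 16 calls held with any 1 array left out, namely Prc1, Cenpa, Pbk, Cdk1, Cdc20, Nusap1, Mad2l1, Bub1b, Cdca3, Ndc80 and Aurkb. Without A/J-MyD88 deficient saline array 2, 11 genes were called, and Birc5 and Anln were among those lost (adjusted p 0.0567 and 0.0634). Calls over all genes fell too, from 375 higher and 774 lower to 127 and 458. Anln was also lost without A/J saline array 3 (adjusted p 0.0644). Cdca8, Kif22 and Spc25 each lost their call under several single omissions, with adjusted p of 0.0537 to 0.0896, 0.0751 to 0.14 and 0.0556 to 0.117. With the replicate number as a block, which pairs the legs, 16 genes were called, 14 of them shared, against 10.2% of all genes. Spc25 (adjusted p 0.0706) and Kif22 (adjusted p 0.0689) were lost, and Top2a (adjusted p 0.0026) and Kif2c (adjusted p 0.0458) were gained. Further probes that passed the filter did not all share the calls of the probe used (limma adjusted p). Those of Mad2l1 (0.0175) and Cdca8 (0.034) were called. Those of Bub1b (0.12), Cdca3 (0.365), Ndc80 (0.934) and Spc25 (0.221) were not. Cdc20 gave 0.0277, 0.0986 and 0.959, and Birc5 gave 0.0158 and 0.118. Among genes not called by the probe used, a further probe of Top2a gave 0.00616, and those of Kif23 0.0156, 0.0746 and 0.934.

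In A/JOlaHsd mice, 0 of the 26 genes were called between the 2 ssRNA and 3 saline arrays, on a background of 1.85% called and 0.864% called higher (limma; 1 of the 26, Kif4, at an unadjusted p under 0.05). Kif4 read 5.12 and 4.59 in ssRNA legs, against 4.25, 4.51 and 4.65 in saline legs, none of these above background. Top2a read 4.17 and 5.08, against 4.67, 4.34 and 6.36 in saline legs, and differed by -0.50 ± 0.41 (adjusted p 0.65). The saline group was uneven: array 3 detected 20 of the 26 genes, arrays 1 and 2 detected 14 and 11. Of all probes, 33.2% were above background on array 3, and 32.2% and 30.6% on arrays 1 and 2. On array 3 Prc1 read 7.64, against 5.70 and 6.27 on the other two. The median log2 fold change was -0.03 with this array and 0.18 without it, with 19 of 26 values then above 0. Without array 3, 1 of the 26 genes, Birc5, was called at 0.78 ± 0.21 (limma adjusted p 0.0447). Over all 11233 genes 269 were then called higher and 257 lower.

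The response to ssRNA was higher in A/J than in A/JOlaHsd mice for 12 of the 26 genes and lower for 0, on a background of 7.48% called, 4.91% called higher and 2.56% called lower. The called genes were Prc1, Top2a, Cenpa, Pbk, Cdca8, Nusap1, Bub1b, Cdc20, Mad2l1, Cdca3, Aurkb and Spc25. In A/JOlaHsd mice Cenpa read 7.84 and 8.005 in ssRNA legs, against 7.31, 7.49 and 8.38 in saline legs, and Prc1 read 6.71 and 7.06, against 5.70, 6.27 and 7.64. Pbk read 4.93 and 5.47, against 5.01, 4.90 and 6.16, Cdca8 read 4.27 and 4.81, against 4.49, 4.25 and 5.77, and Nusap1 read 4.95 and 4.89, against 4.36, 4.70 and 5.77. The A/JOlaHsd legs overlapped in all 5 of these genes, but not in every one of the 12. Cdc20 averaged 5.34 in ssRNA legs, with both arrays above the saline arrays, which averaged 5.08 (limma adjusted p 0.671). Spc25 averaged 4.23 in ssRNA legs, with both arrays below the saline arrays, which averaged 4.44 (adjusted p 0.554). Cenpa responded by 2.00 in A/J and 0.19 in A/JOlaHsd, a difference of 1.80 ± 0.35 (adjusted p 0.00988). Prc1, at 2.40 in A/J and 0.34 in A/JOlaHsd, differed by 2.06 ± 0.52 (adjusted p 0.0281), and Top2a, at 1.50 and -0.50, by 2.00 ± 0.55 (adjusted p 0.0378). Top2a, Pbk, Cdca8, Aurkb and Spc25 were above background on 0 A/J saline arrays and Bub1b on 0 arrays of both A/JOlaHsd groups, so their response differences are fitted values that rest in part on background readings and are not bounds. The count was 5 without A/JOlaHsd ssRNA array 1, and 7 without A/J saline array 3 or any 1 of the A/J ssRNA arrays. It was 20 with median centring, 19 on the authors' own normalised values and 3 in a fit of these strains alone. Calls over all genes moved too, from 552 higher and 288 lower in the main fit. In these 3 settings they were 1744 and 12, 962 and 405, and 152 and 32. Without A/JOlaHsd ssRNA array 1 they were 292 and 250. In the omissions that gave 7, they ran from 219 to 371 higher and from 87 to 169 lower.

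Between saline legs, 10 of the 26 genes were lower and 1 was higher in A/J than in A/JOlaHsd mice, on a background of 47.3% called, 24.4% called lower and 22.9% called higher. Aurka read 6.38, 6.83 and 6.75 in A/J, against 8.52, 9.06 and 8.49 in A/JOlaHsd saline legs, and differed by -2.03 ± 0.25 (adjusted p 1.33e-05). Kif23 read 7.60, 7.24 and 7.66, against 8.72, 8.74 and 8.996 (-1.32 ± 0.18, adjusted p 4.51e-05). In ssRNA legs Aurka read 7.70, 6.50 and 6.71 in A/J, against 8.86 and 8.79 in A/JOlaHsd. Prc1, at 5.27, 5.37 and 4.46 against 5.70, 6.27 and 7.64, differed by -1.50 ± 0.35 (adjusted p 0.00217). Anln, at 4.88, 5.14 and 4.49 against 5.38, 6.23 and 7.30, differed by -1.47 ± 0.32 (adjusted p 0.00134), and Cenpa, at 6.47, 6.79 and 6.16 against 7.31, 7.49 and 8.38, by -1.25 ± 0.23 (adjusted p 0.000391). In these 3 genes array 3 was the highest of the A/JOlaHsd saline arrays. Pbk, not above background in A/J at 4.45, 4.40 and 4.34, against 5.01, 4.90 and 6.16, was lower by at least 1.75-fold in A/J (adjusted p 0.00487), and Birc5, Cdk1, Kif22 and Aurkb were also lower. Spc24, at 5.79 ± 0.32 in A/J and 5.08 ± 0.22 in A/JOlaHsd (SD, n = 3 each), was the 1 higher gene (0.72 ± 0.18, adjusted p 0.0035). With median centring in place of quantile normalisation the median over all genes was 0.77 higher in A/J. Then 2 of the 26 genes were called, with 7734 higher and 77 lower over all genes. A fit of the 2 saline groups alone called 7, with 1812 higher and 1940 lower over all genes. These counts thus depend on the scaling and the arrays fitted.

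**Figure D5:**
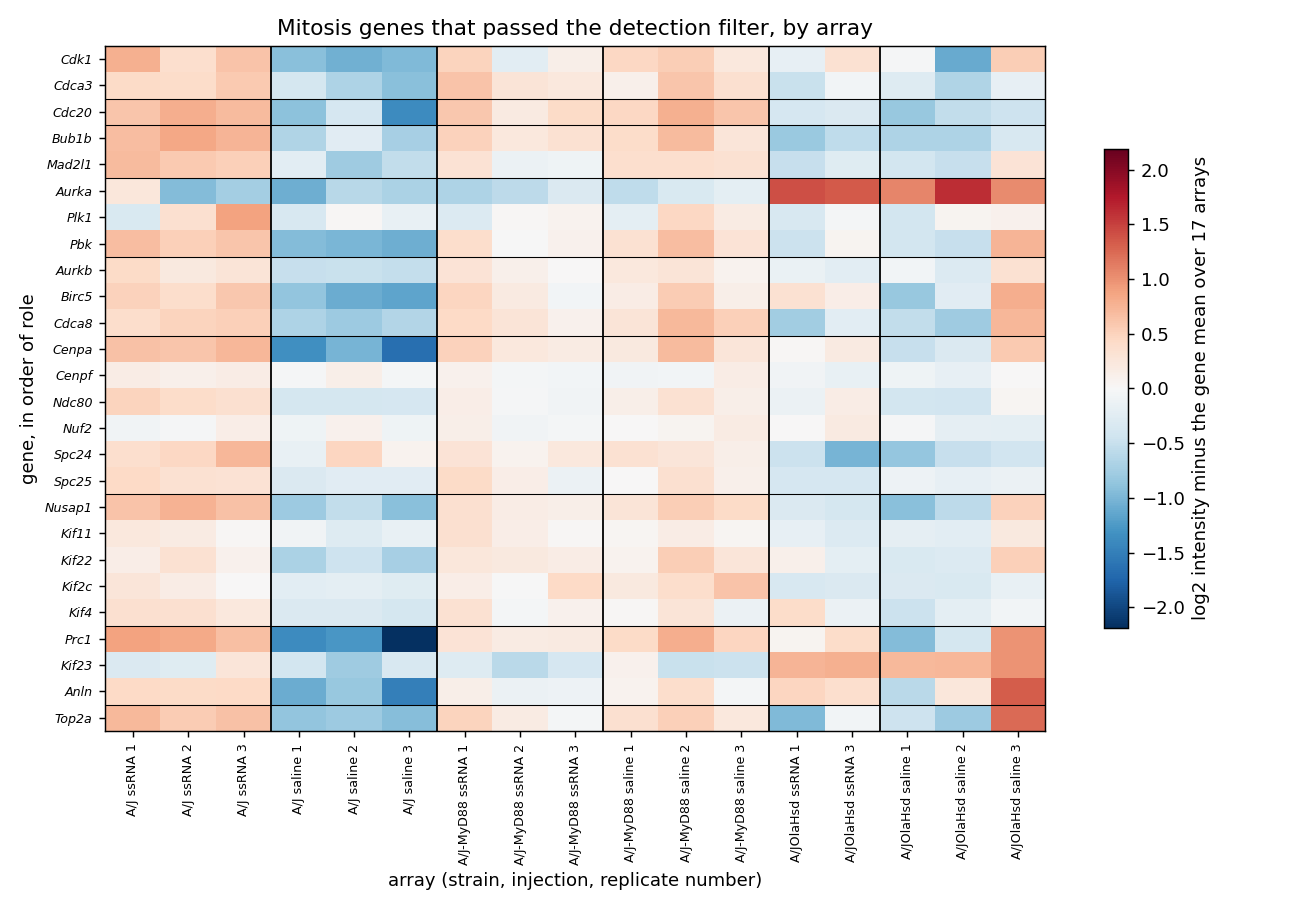
Log2 intensity of the 26 genes that passed the filter, minus each gene's mean over 17 arrays, in order of role (rows) and by array (columns). A/J saline arrays are low (blue) for most genes and both A/J-MyD88 deficient groups are near or above the mean for most, while Aurka and Kif23 are high (red) on every A/JOlaHsd array.

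Further genes of the same machinery were read in A/J from a list of 70 other mitosis genes, of which 42 passed the filter. Of these, 16 were higher in ssRNA legs and 1 was lower, against 12.4% and 10% of all genes, with a median log2 fold change of 0.22, against -0.05 over all genes. Ncaph, a condensin subunit, averaged 5.42 in ssRNA legs and 4.49 in saline legs (adjusted p 0.000509). Incenp, the scaffold of the passenger complex, averaged 5.31 and 4.40 (adjusted p 0.0219), and Kif20b, a kinesin of late cytokinesis, 5.10 and 4.38 (adjusted p 0.000145). None of these 3 was above background in saline legs. Cenpt, which anchors the kinetochore to the centromere, rose by 0.74 ± 0.22 (adjusted p 0.0219), and the 1 lower gene, named after its value was seen, was Bub3, a checkpoint protein, which fell by 0.63 on the log2 scale (adjusted p 0.00534).

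Of the other lists in A/J, some held calls at about the rate of all genes, 12.4% higher and 10% lower. Of 12 measured subunits of the anaphase-promoting complex, 0 were higher and 1 was lower, Anapc5 at -0.49 ± 0.13 (adjusted p 0.0123), with a list median of -0.09. Among 16 measured E2F, Rb, DREAM and B-Myb-FoxM1 regulators, 3 were higher and 2 lower, counts near the background. E2f1 and E2f2, activating E2F factors, rose by 1.37 ± 0.23 (adjusted p 0.000442) and 1.17 ± 0.22 (adjusted p 0.00143), while Tfdp2, an E2F partner, and E2f6, a repressor, fell by 0.63 (adjusted p 0.00182) and 0.50 (adjusted p 0.0103) on the log2 scale. Of 8 measured G1 cyclins and kinases 3 were higher and 0 lower: Ccnd1, a cyclin of G1, by 1.52 ± 0.20 (adjusted p 5.5e-05), Cdk2 by 0.98 ± 0.23 (adjusted p 0.00572) and Ccnd3 by 0.62 ± 0.14 (adjusted p 0.00445). Of 7 measured CDK inhibitors 1 was higher, also near the background: Cdkn3, a phosphatase that acts on CDKs, with means of 5.40 in ssRNA legs and 4.36 in saline legs, where it was not above background (adjusted p 0.00237).

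Of 28 measured DNA replication genes, 14 were higher in A/J ssRNA legs, 0 were lower and 14 were not called, against 12.4% higher and 10% lower of all genes, with a median log2 fold change of 0.41. Uhrf1, which keeps DNA methylation through replication, rose by 2.29 ± 0.37 (adjusted p 0.000362). Mcm5 and Mcm6, parts of the replicative helicase, rose by 1.50 ± 0.16 (adjusted p 9.08e-06) and 1.30 ± 0.28 (adjusted p 0.00301), and Cdt1, which loads the helicase, by 1.42 ± 0.18 (adjusted p 4.28e-05). In A/J-MyD88 deficient mice 0 of the 28 were called between legs, and 11 were higher and 0 lower in A/J-MyD88 deficient than in A/J saline legs, against 4.42% and 0.988% of all genes. For the 42 further mitosis genes these counts were 0 between legs and 6 higher and 0 lower between saline legs.

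Some markers of other cells moved with these genes and some did not. In A/J, 13 of 15 measured macrophage markers were higher in ssRNA legs and 0 lower, against 12.4% and 10% of all genes, with a median log2 fold change of 2.28. Their summed non-normalised signal was 8668 to 11573 on A/J ssRNA arrays, against 666 to 1596 on A/J saline arrays. On A/J-MyD88 deficient arrays it was 2523 to 4503 in ssRNA legs, against 3301 to 5917 in saline legs. Itgam and Fcgr1 were above background on none of the A/J saline arrays. Between saline legs, 9 of the 15 were higher in A/J-MyD88 deficient than in A/J mice and 0 lower, against 4.42% and 0.988% of all genes. Between ssRNA legs, 10 of the 15 were lower in A/J-MyD88 deficient mice and 0 higher, against 3.05% and 2.68% of all genes, whereas 0 of the 26 mitosis genes were called there.

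In A/J as well, 5 of 8 T and NK cell markers, 2 of 2 neutrophil markers, 4 of 8 satellite cell and myoblast markers and 6 of 9 fibroblast markers were higher in ssRNA legs and 0 of each lower, on the background of 12.4% and 10%. Between saline legs of A/J-MyD88 deficient and A/J mice, where 16 of the 26 mitosis genes were higher, 0 of 8 T and NK cell and 0 of 2 neutrophil markers were called. There 2 of 9 fibroblast markers and 3 of 8 satellite cell and myoblast markers were higher and 0 lower, against 4.42% and 0.988% of all genes. Between ssRNA legs, 5 of 8 T and NK cell markers were lower and 1 was higher in A/J-MyD88 deficient mice, and 2 of 2 neutrophil markers were lower. Of the satellite cell and myoblast markers 0 of 8 were called there, and of the fibroblast markers 0 of 9. Over all genes 3.05% were called lower and 2.68% higher. In A/JOlaHsd, where 0 of the 26 mitosis genes were called, 2 of 8 T and NK cell markers were higher in ssRNA legs, against 0.864% of all genes. Of the macrophage markers 0 of 15 were called there, of the satellite cell and myoblast markers 0 of 8 and of the fibroblast markers 0 of 9. Summed signals on A/J ssRNA arrays were 894 to 1290 for T and NK cells, 119 to 138 for neutrophils, 8284 to 10710 for satellite cells and myoblasts and 12788 to 13949 for fibroblasts. On A/J saline arrays these were 805 to 1096, 8.83 to 42.1, 5535 to 6209 and 5565 to 9475. The T and NK cell sums, which are not normalised, overlapped between the A/J legs. The mean normalised log2 value of these 8 markers was 5.70 to 5.90 on A/J ssRNA arrays, against 4.93 to 5.08 on A/J saline arrays. Cd3d, Cd3e, Cd3g, Cd2, Nkg7 and Klrb1c were above background on none of the A/J saline arrays. Satellite cell and myoblast markers were at 6947 to 10285 in A/J-MyD88 deficient ssRNA legs, against 6365 to 8495 in A/J-MyD88 deficient saline legs, where 3 of 8 were higher than in A/J saline legs. In A/JOlaHsd the summed macrophage signal was 1347 to 2027 in ssRNA legs, against 889 to 3267 in saline legs. Muscle fibre markers were called in 0 of 9 cases between the A/J legs, endothelial markers in 0 higher and 1 lower of 7, B and plasma cell markers in 0 of 2 and erythroid markers in 0 of 2. The part of these cells in the values of the mitosis genes was not tested.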

How the data were processed

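Total RNA of tibialis anterior muscle was labelled as cRNA and hybridised to 18 Illumina bead arrays, 3 per strain and injection. The authors deposited non-normalised probe intensities with a detection p-value beside each, per the file headers, and the submitters' processing notes name GenomeStudio. The detection p-values run in steps of 1 in 936. A further deposited table holds the authors' normalised intensities, whose columns share their quantiles within a strain, and it served as an alternative.

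The non-normalised intensities of 17 arrays were background-corrected and quantile-normalised on the log2 scale with limma 3.58.1 (neqc, offset 16) in R 4.3.3. The filter, a detection p-value under 0.05 on 3 or more arrays, left 20825 of 45281 probes. Of all probes, 34885 had 1 gene symbol, 18 several and 10378 were not listed; those with 1 symbol gave 11233 genes, each by the probe of highest mean signal. Group means of all 6 groups were fitted with lmFit and eBayes, with Benjamini-Hochberg adjustment over all genes. The number of arrays limits the precision. The calculation was tested on simulated data. Deviations of same-numbered legs from their group means correlated at 0.40, 0.43 and 0.14 in A/J, and at 0.47, 0.18 and 0.17 in A/J-MyD88 deficient mice. Legs with different numbers ran from -0.49 to 0.17 and from -0.30 to 0.08. In A/JOlaHsd the values were -0.12 and -0.10, but its 2 ssRNA arrays deviate as mirror images, so these are not comparable. The replicate number was therefore a block in an alternative.

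The genes, lists and rules for naming genes were chosen with earlier results of these data known. Values on every array were given for the called genes with the largest changes, and up to 4 called genes of each further list were named, besides Bub3, which was chosen after its value was seen. Other alternatives changed the arrays, the background correction, the normalisation, the filter, the probe per gene and the arrays fitted. Chips and batches of the arrays are not stated in the labels.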

Additional observations from a re-analysis of the deposited data

Results flagged for a closer look

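The response to ssRNA differed between strains, by the interaction term of the limma fit, for the genes below; the differences are on the log2 scale and both sets use the same A/J arrays. A/J-MyD88 deficient minus A/J was -2.74 for Prc1, -2.07 for Cenpa, -1.89 for Pbk, -1.85 for Cdk1, -1.80 for Cdc20, -1.75 for Anln, -1.63 for Nusap1 and -1.61 for Birc5. It was -1.43 for Mad2l1, -1.41 for Cdca8, -1.39 for Bub1b, -1.09 for Cdca3, -0.97 for Ndc80, -0.89 for Kif22, -0.86 for Aurkb and -0.64 for Spc25.

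A/J minus A/JOlaHsd was 2.06 for Prc1, 2.00 for Top2a, 1.80 for Cenpa, 1.77 for Pbk, 1.47 for Cdca8 and 1.45 for Nusap1. It was 1.42 for Bub1b, 1.32 for Cdc20, 1.29 for Mad2l1, 1.03 for Cdca3, 0.98 for Aurkb and 0.85 for Spc25.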

How the results depend on the processing

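The 19 calls in A/J were all kept with the replicate number as a block, which called 23.3% of all genes. With 1 array left out 18 to 19 genes were called, with 1019 to 1342 higher and 529 to 1060 lower over all genes. The same omissions gave 0 to 0 calls in A/J-MyD88 deficient mice and 0 to 1 in A/JOlaHsd. They gave 9 to 13 between saline legs of A/J and A/JOlaHsd, with 2250 to 2653 higher and 2331 to 2868 lower over all genes. Between A/J-MyD88 deficient and A/J mice they gave 7 to 16 for saline legs, with 161 to 431 and 19 to 98. For ssRNA legs they gave 0 to 0, with 58 to 182 and 119 to 211. For responses they gave 11 to 17 for A/J-MyD88 deficient minus A/J, with 127 to 457 and 458 to 767. They gave 5 to 15 for A/J minus A/JOlaHsd, with 219 to 827 and 87 to 490. With the array without muscle signal kept (18 arrays), 10 genes were called in A/J, where 213 of all genes were higher and 13 lower. Between saline legs of A/J and A/JOlaHsd 0 were called, with 637 and 224 over all genes. Between saline legs of A/J-MyD88 deficient and A/J mice 2 were called, with 13 and 3 over all genes. For the above 2 response differences 1 and 0 were called, with 0 higher and 25 lower, and 10 and 0, over all genes. With median centring the counts were 2 between saline legs of A/J and A/JOlaHsd, 7 between ssRNA legs and 20 for the response of A/J minus A/JOlaHsd. That last count was 19 on the authors' normalised values. In fits of the compared groups alone these 3 counts were 7, 6 and 3. Calls over all genes changed in these settings too. The cause of these changes was not tested. Over all genes in A/J, median centring gave 2490 higher and 349 lower calls, against 1397 and 1123. Between saline legs of A/J and A/JOlaHsd it gave 7734 and 77, against 2576 and 2742. With 1 A/J array left out, the A/J change of Aurka ran from -0.0492 (without ssRNA array 1) to 0.55, and that of Nuf2 from -0.0205 (without ssRNA array 3) to 0.11. The replicate block gave 16 calls for the response of A/J-MyD88 deficient minus A/J, 14 of them shared, and 13 for A/J minus A/JOlaHsd. Over all genes the block called 10.2% and 9.94%. As a random block between strains it changed no count of mitosis genes. Dim probes limit what can be said of genes at background in A/J saline legs.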
